A study of Mus musculus with 4 samples.

Results

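The genes described here encode the initiation and elongation factors of translation. They were taken from the array's own gene names, as every non-control probe whose name started with Eif or Eef, leaving out the Eif2ak kinases and Eif2s3y. The rule gave 132 of the 41174 probes on the array and 60 genes, of which 58 were tested among 15277 genes in all. Organoids were compared with crypts. They were grown for 1 week from small intestinal crypts in Matrigel, in Advanced DMEM/F12 with EGF, R-spondin and Noggin. Crypts were released from the small intestine with EDTA, strained, and lysed without culture. Both came from the same 2 mice, whose strain, age and genotype are not given in the sources used here. Crypt and organoid RNA of a mouse were labelled with Cy3 and Cy5 and hybridised together on an Agilent array carrying 60-base probes, and a further array of each mouse had the dyes exchanged, for 4 arrays in all. The 2 arrays of a mouse are repeats of the same RNAs, so n = 2 mice throughout, and all 4 arrays lay on 1 slide.

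Protein synthesis starts when the small ribosomal subunit, loaded by eIF2 with the initiator tRNA and bound by eIF1, eIF1A, eIF3 and eIF5, is brought to the mRNA cap by the eIF4F complex. eIF4F joins the cap-binding protein eIF4E, the scaffold eIF4G and the helicase eIF4A. The 4E-binding proteins keep eIF4E from eIF4G until the kinase mTORC1 phosphorylates them. During elongation eEF1A brings each aminoacyl-tRNA to the ribosome, the eEF1B subunits recharge eEF1A with GTP, and eEF2 moves the ribosome along. Many mRNAs of the translation apparatus, elongation factors among them, begin with a run of pyrimidines and are called TOP mRNAs. In the intestine the crypt is the site of cell division.

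In organoids 6 of the 58 tested factors were higher than in crypts and none was lower. Each value is a log2 ratio with the organoid on top, and a gene passed where its adjusted p was under 0.05 (limma on the 2 mouse means, Benjamini-Hochberg over all 15277 genes). The 6 are the translational repressor Eif4ebp1, the helicase cofactor Eif4b, the elongation factors Eef1b2 and Eef1a1, and the eIF3 subunits Eif3e and Eif3m. The bases that reported them follow, as the first 30 of the 60 in each probe, with a second probe for Eif4ebp1 and for Eif3e because those read a lower ratio. Positions are those of the whole probe in mm9 as the files give them, and where the span exceeds the probe's length the file places it on separate blocks. No annotation of that build was used here, so exons and untranslated regions are not named.
Eif4ebp1, chr8:28385887-28385946, plus strand: cagcctccggagcacacccatctttcctta
Eif4ebp1 second probe, chr8:28386065-28386124, plus strand: tttatggtgtgatttccctgtacaatattt
Eif4b, chr15:101925462-101925724, plus strand: tgaggagaacccagcctctaagttcagctc
Eef1b2, chr1:63225413-63225472, plus strand: aggaagcagagaagctacgagaagaacgcc
Eef1a1, chr9:78327779-78327838, minus strand: ctgattgttggtgtcaacaaaatggattcc
Eif3e, chr15:43081660-43081719, minus strand: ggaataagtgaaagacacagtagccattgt
Eif3e second probe, chr15:43109966-43114205, minus strand: cattttctggatcggcacctggtctttccg
Eif3m, chr2:104839879-104839938, minus strand: tgcctggaaacagaacttgaacaaagtgaa

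The 6 calls are 10.3% of the factors tested, where 5.65% of all genes were called higher. The order of these shares turned with the scanner software's own ratios (1.72% of the factors, against 4.6% of all genes) and with the authors' deposited matrix (1.72%, against 4.48%). Lower calls made up 5.6% of all genes, and 11.3% were called in either direction. At an unadjusted p under 0.05, 14 factors (24.1%, against 14.6% of all genes) were higher and 1 (1.72%, against 13.3%), Eif6, was lower. The median ratio of the tested factors was 0.13, with medians of 0.15 in mouse 1 and 0.12 in mouse 2, against 0.03 over all genes. Within 0.5 of zero lay 50 of the 58 ratios (86.2%), against 81.3% of all genes. The ratio was above zero in both mice for 31 factors (53.4%, against 37.3% of all genes) and below zero in both for 12 (20.7%, against 31.8%). Across the 58 factors the ratios of the 2 mice correlated with r = 0.702, a description over probes that share the same arrays.

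**Figure D1:**
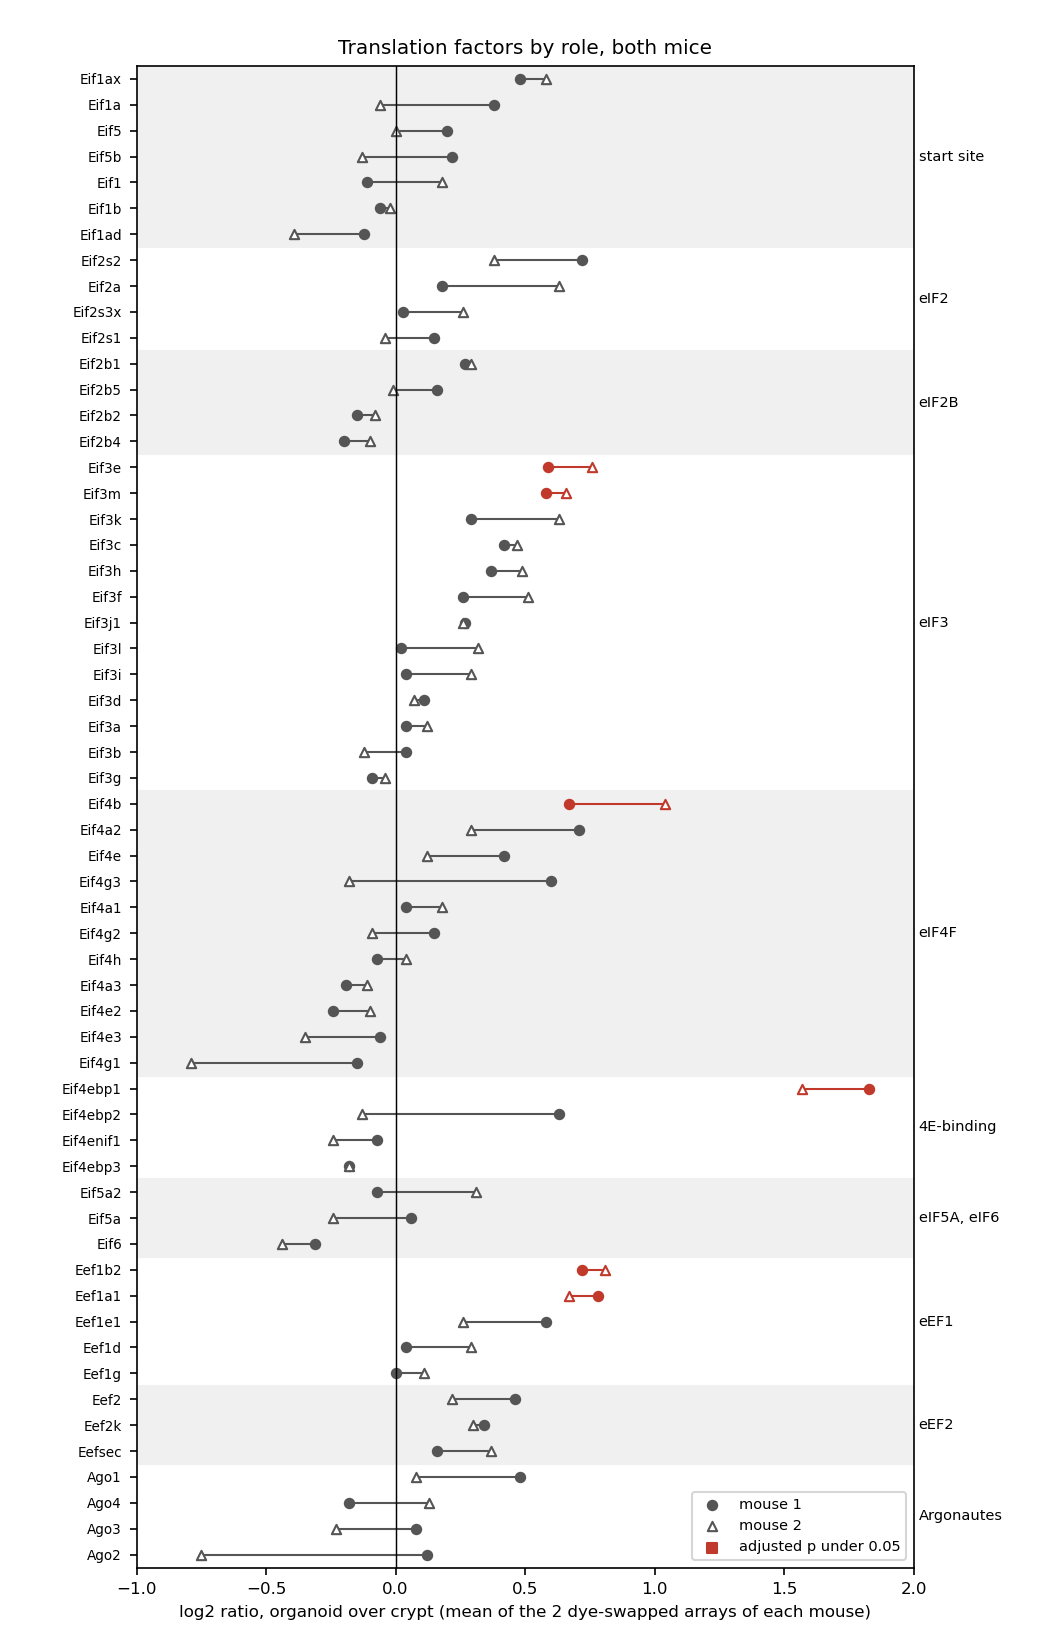
Log2 ratio of organoid over crypt (horizontal axis) for the 58 tested factors, grouped by role, with a filled circle for mouse 1 and an open triangle for mouse 2, each the mean of 2 dye-swapped arrays. The 6 factors in red passed the test, and Eif4ebp1 stands farthest to the right at 1.83 in mouse 1 and 1.57 in mouse 2.

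The rule also takes Ago1 to Ago4, which the array lists under the old names Eif2c1 to Eif2c4. They are Argonautes, the proteins that hold small RNAs, and not translation factors. None of the 4 was called, 0 had an unadjusted p under 0.05, their ratios ran from -0.32 to 0.28, and without them the counts were 6 of 54 (11.1%) higher and 0 lower, with a median of 0.16. Only Ago1 had the same sign in both mice. Conversely, 6 genes whose current symbols start with Eif or Eef lie outside the rule because the array uses older names. They are Eif2d and 5 methyltransferases of elongation factors, and none was called. The 5 methyltransferases, 2 of them at an unadjusted p under 0.05, had a median of 0.28, with a highest value of 0.64 for Eef1akmt2 (adjusted p = 0.0527).

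Of the 6 calls, Eif4ebp1 was the only one that passed under all 12 other processing settings. The other 5 kept their direction in all 12 and lost the call in 4 to 6 of them. In particular, with the scanner software's own ratios, with the authors' deposited matrix, without the filter on dim probes and with median centring in place of loess, Eif4ebp1 alone passed among the factors. The adjusted p of the other 5 ran from 0.0507 to 0.276 under these 4 settings. The plot of the settings shows that the ratios themselves moved most under median centring, where the dye orientations were taken apart and, for Eif3e, where the probes of a gene were averaged.

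**Figure D2:**
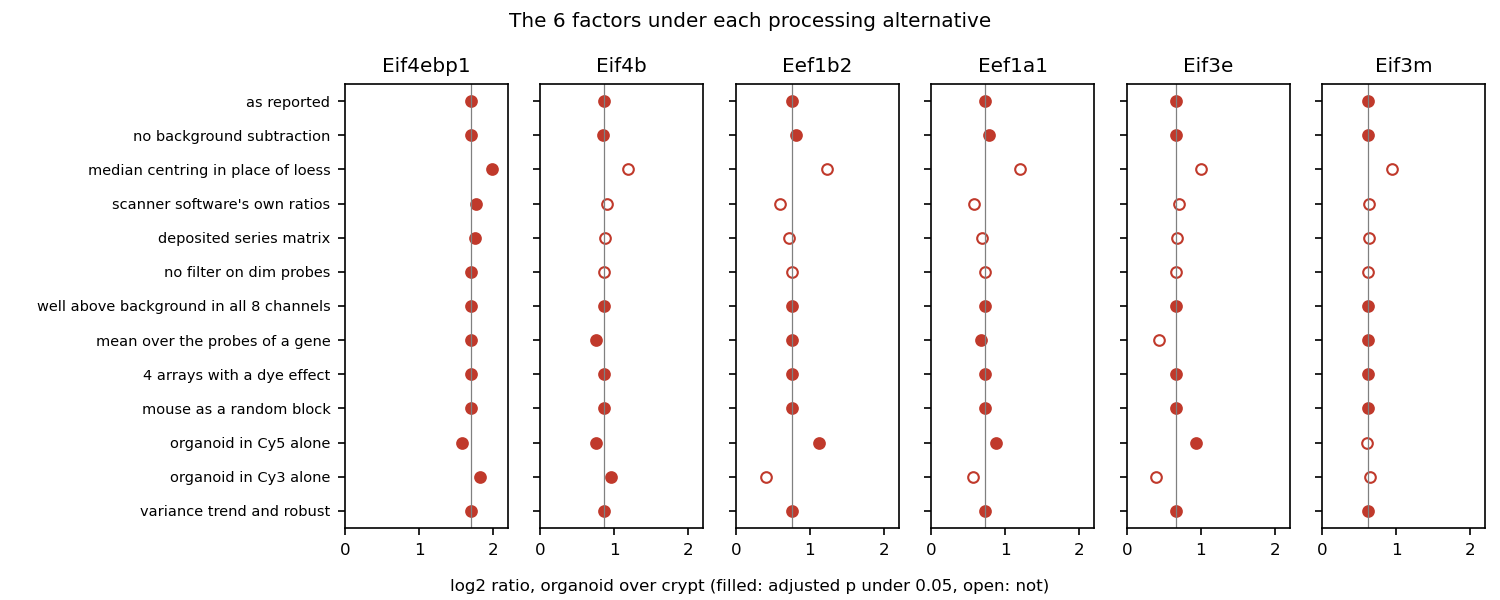
Log2 ratio of organoid over crypt (horizontal axes) of the 6 factors under each processing setting (rows), filled where the adjusted p was under 0.05 and open where it was not, with a vertical line at the reported value. Eif4ebp1 is filled in every row, between 1.58 and 1.99, while each of the other factors is open in 4 to 6 rows.

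Among the proteins that bind eIF4E, Eif4ebp1, which encodes the repressor 4E-BP1, was 3.25-fold higher in organoids. Its log2 ratios were 1.67 and 1.99 on the arrays of mouse 1 and 1.49 and 1.66 on those of mouse 2, in each case with the organoid in Cy5 and then in Cy3. The mean was 1.70 ± 0.18 (SD, n = 2 mice), with a 95% interval of 1.35 to 2.05 and an adjusted p of 0.00405. The normalised log2 intensity was 13.69 and 13.20 in the organoid channels of mouse 1 and mouse 2, against 11.86 and 11.63 in the crypt channels. Each level is the mean of a mouse's 2 arrays, and the organoid level was the higher in both mice. The ratio was above zero in both mice for 37.3% of all genes. A second probe placed less than a kilobase away had a ratio of 0.38, with 0.37 in mouse 1 and 0.39 in mouse 2. It was well above background in 2 of 4 organoid channels and in 0 of 4 crypt channels, so it was dim in both tissues and was not tested.

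The related repressors did not pass. Eif4ebp2 was at 0.63 in mouse 1 and -0.13 in mouse 2, and its mean of 0.25 had a 95% interval of -0.28 to 0.79. Eif4ebp3 had a ratio of -0.18 in each mouse (interval -0.51 to 0.14), and Eif4enif1, which carries eIF4E between nucleus and cytoplasm and represses translation, had -0.16 (interval -0.49 to 0.18). The upper bounds for Eif4ebp2, Eif4ebp3 and Eif4enif1 lie below the lower bound for Eif4ebp1, 1.35.

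**Figure D3:**
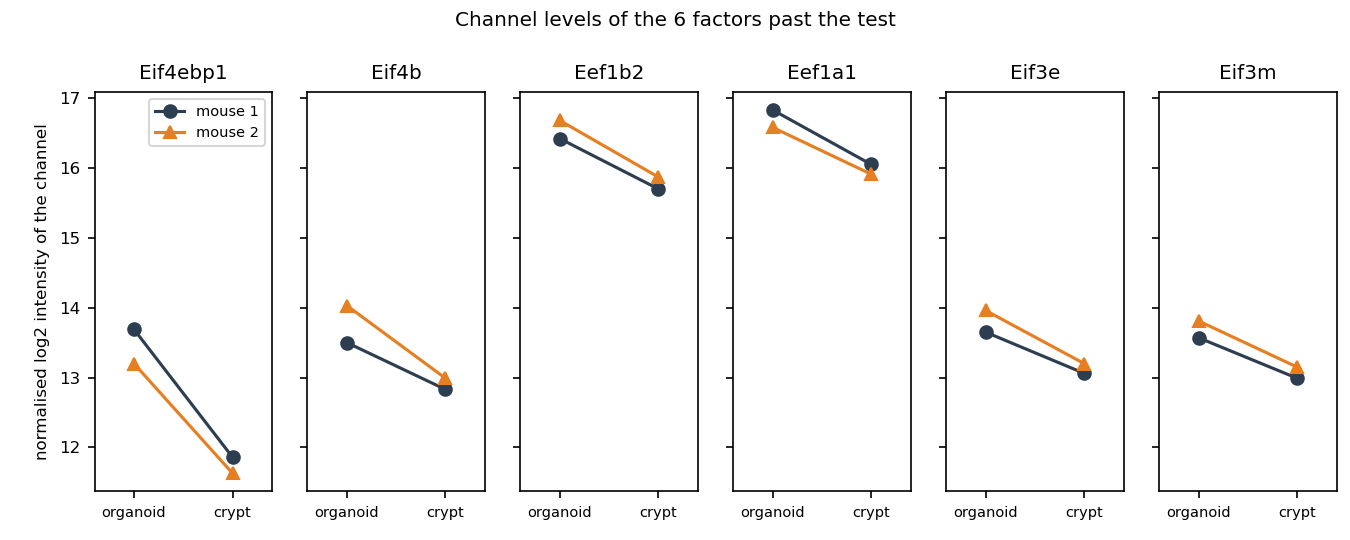
Normalised log2 intensity (vertical axis) in the organoid channel (left) and the crypt channel (right) of each mouse for the 6 factors past the test, each point the mean of 2 arrays. The organoid point lies above the crypt point in both mice in every panel, and levels are not comparable between genes because each panel is a different probe.

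Within the cap-binding and helicase group, 1 of 11 factors was called. Eif4b, whose product stimulates the helicase eIF4A, was 1.81-fold higher in organoids. Its ratios were 0.60 and 0.75 in mouse 1 and 0.91 and 1.17 in mouse 2, with a mean of 0.86 ± 0.26 (SD, n = 2 mice) and an adjusted p of 0.0275. Channel levels were 13.50 and 14.03 in organoids of mouse 1 and mouse 2, against 12.83 and 12.99 in crypts. The other two Eif4b probes had ratios of 0.66 and 0.75, so every probe of the gene lay above zero in both mice. Eif4h, which encodes a related cofactor of the helicase, had -0.01 (interval -0.34 to 0.32).

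No gene of the eIF4F core passed. The cap-binding protein gene Eif4e had a ratio of 0.27 (interval -0.09 to 0.63), and its second probe had -0.13. The helicase genes had 0.11 for Eif4a1 and 0.50 for Eif4a2 (adjusted p = 0.113). Their other probes read higher, at 0.68 and 0.26 for Eif4a1 and 0.79 for Eif4a2, and with the probes averaged Eif4a2 passed at 0.64 (adjusted p = 0.0498) and Eif4a1 had 0.35. Eif4a3, which encodes a helicase of the exon junction complex and has 1 probe, had -0.15. The scaffold gene Eif4g1 had the lowest ratio of all members, -0.47 (interval -0.95 to 0.01), and did not pass. Its second probe had -0.18. Its arrays read -0.64 and 0.34 in mouse 1 and -1.45 and -0.13 in mouse 2, with the organoid in Cy5 first, so the arrays with the organoid in Cy5 were low in both mice and the others straddled zero. With those 2 Cy5 arrays alone Eif4g1 was called lower at -1.04 (adjusted p = 0.0259). Eif4g3, encoding a second scaffold, disagreed between mice at 0.60 and -0.18, and Eif4g2, encoding a scaffold that does not bind eIF4E, had 0.03. The cap-binding homologues Eif4e2 and Eif4e3 had -0.17 and -0.21. Eif4e3 was well above background in 3 of 4 organoid channels and in all 4 crypt channels.

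The eIF3 complex, the largest initiation factor and the platform on which the others gather, had 2 of 13 subunits called. Both were higher in organoids, and 11 of 13 subunits lay above zero in both mice, with a median of 0.26. Eif3e read 0.92 and 0.26 in mouse 1 and 0.96 and 0.55 in mouse 2, with the organoid in Cy5 first. Its mean was 0.67 ± 0.12 (SD, n = 2 mice; adjusted p = 0.0371), and the arrays with the organoid in Cy5 were the higher ones in both mice. Eif3e levels were 13.65 and 13.96 in organoids of mouse 1 and mouse 2, against 13.06 and 13.20 in crypts. Its second probe had 0.21 on average, with -0.16 in mouse 1 and 0.57 in mouse 2, and the mean over both probes, 0.44, did not pass (adjusted p = 0.155). Eif3m read 0.70 and 0.46 in mouse 1 and 0.50 and 0.82 in mouse 2, with a mean of 0.62 ± 0.06 (adjusted p = 0.0425). Eif3m levels were 13.57 and 13.81 in organoids, against 12.99 and 13.15 in crypts. The organoid level of Eif3m was the higher in both mice.

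Subunits Eif3k, Eif3c, Eif3h and Eif3f had ratios of 0.46, 0.45, 0.43 and 0.38 and did not pass (adjusted p from 0.0928 to 0.151). They were positive on all 4 arrays, as were 25.5% of all genes. All 4 probes of Eif3c lay above zero, at 0.45, 0.22, 0.63 and 0.95. The other subunits lay closer to zero: Eif3j1 had 0.26, Eif3l and Eif3i had 0.17 each, Eif3d had 0.09 and Eif3a had 0.08. Eif3b and Eif3g had -0.04 and -0.07. By structure, the products of Eif3a, Eif3c, Eif3e, Eif3f, Eif3h, Eif3k, Eif3l and Eif3m form the PCI and MPN core of the complex, and Eif3b, Eif3d, Eif3g, Eif3i and Eif3j1 lie outside it. The 8 core subunits had a median of 0.44, ranging from 0.08 to 0.67, and the 5 others had a median of 0.09, ranging from -0.07 to 0.26. This division was made after the values were seen, so the difference was not tested.

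**Figure D4:**
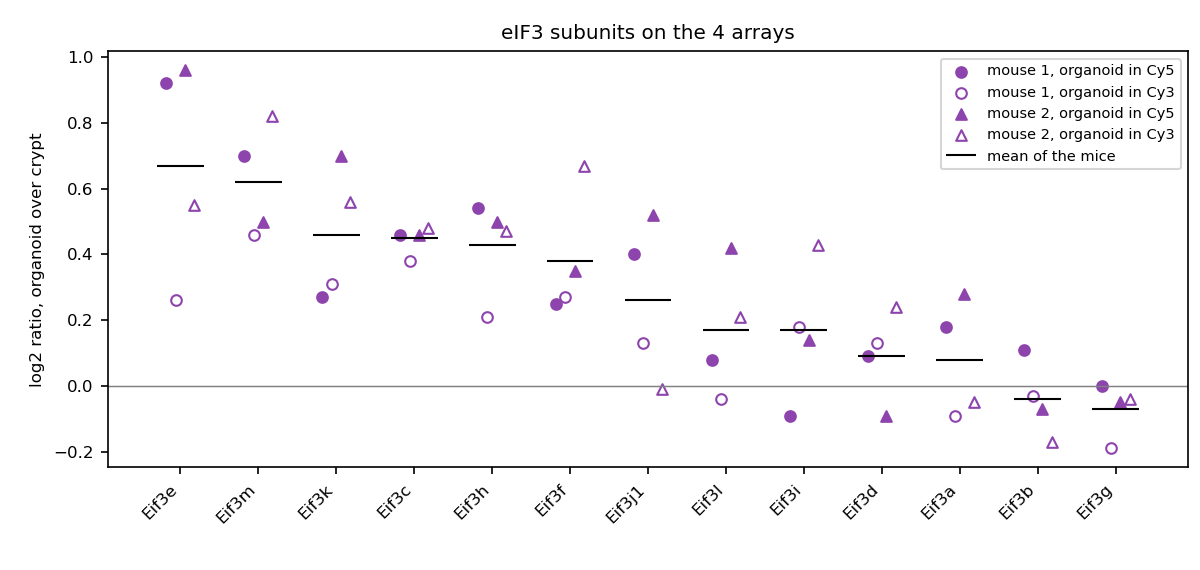
Log2 ratio of organoid over crypt (vertical axis) of the 13 eIF3 subunit genes on each of the 4 arrays, circles for mouse 1 and triangles for mouse 2, filled where the organoid was in Cy5 and open where it was in Cy3, with a bar at the mean of the mice. The 6 subunits at the left, Eif3e to Eif3f, are above zero on all 4 arrays, and those at the right straddle zero.

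The factors that load the initiator tRNA were not called, and only Eif2s2 had an unadjusted p under 0.05. eIF2 binds the tRNA with GTP. Eif2s2, its beta subunit gene, came closest with 0.82 and 0.62 in mouse 1 and 0.37 and 0.39 in mouse 2, a mean of 0.55 ± 0.24 (adjusted p = 0.0794). The alpha subunit gene Eif2s1 had 0.05 (interval -0.29 to 0.40) and the gamma subunit gene Eif2s3x had 0.15. The other tested probes read 0.32 for Eif2s2, 0.21 for Eif2s1, and 0.37 and 0.40 for Eif2s3x, and differences between subunits were not tested. Eif2a, encoding a separate protein that can deliver initiator tRNA by another route, had 0.18 in mouse 1 and 0.63 in mouse 2. For eIF2B, which exchanges GDP for GTP on eIF2, 4 of 5 subunit genes were tested and 0 were called. They ran from -0.15 for Eif2b4 and -0.11 for Eif2b2 to 0.07 for Eif2b5 and 0.28 for Eif2b1. The fifth, Eif2b3, had a probe well above background in 0 of 4 organoid channels and in 1 of 4 crypt channels.

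Among the 7 genes for start site selection and subunit joining, 0 were called and only Eif1ax had an unadjusted p under 0.05. Eif1ax, named Eif1ay in the files, had the highest ratio, 0.53 ± 0.07 (adjusted p = 0.063), with 0.55 and 0.41 in mouse 1 and 0.71 and 0.45 in mouse 2. Its second probe, on the same gene of the X chromosome, had -0.09, with -0.08 in mouse 1 and -0.09 in mouse 2, so the probes differed in sign. Eif1a, a close copy, had 0.38 in mouse 1 and -0.06 in mouse 2. Eif1, which guards start codon choice, had 0.04 (interval -0.33 to 0.40), and Eif1b and Eif1ad had -0.04 and -0.25. Eif5, which makes eIF2 hydrolyse its GTP, had 0.10 by its main probe, and its other probes had 0.48 and -0.20. Eif5b, the GTPase that joins the ribosomal subunits, had 0.05, with 4 of its 5 probes above zero.

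Of the eEF1 genes, 2 of the 5 tested were called, both higher in organoids, and all 5 lay at or above zero in both mice. Eef1a1, which encodes the carrier of aminoacyl-tRNA, was 1.65-fold higher. It read 1.00 and 0.55 in mouse 1 and 0.74 and 0.60 in mouse 2, with a mean of 0.72 ± 0.07 (SD, n = 2 mice; adjusted p = 0.0288). Its levels were 16.83 and 16.58 in organoids of mouse 1 and mouse 2, against 16.05 and 15.91 in crypts, and its second probe had 0.61 in each mouse. Eef1b2, which encodes the exchange subunit eEF1B alpha, was 1.70-fold higher. Its levels were 16.42 and 16.68 in organoids, against 15.70 and 15.87 in crypts. It read 1.22 and 0.22 in mouse 1 and 1.02 and 0.60 in mouse 2, with a mean of 0.76 ± 0.07 (adjusted p = 0.0246). Both Eef1b2 arrays with the organoid in Cy5 were above both with it in Cy3: the Cy5 arrays alone gave a call and the Cy3 arrays alone gave 0.41 and did not (adjusted p = 0.204).

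The remaining eEF1 genes did not pass. Eef1d, another exchange subunit gene, had 0.17 by its main probe and -0.20 by a dimmer probe. Eef1g, encoding the scaffold subunit, had 0.06 by its main probe and 0.60 by another, with 0.69 in mouse 1 and 0.51 in mouse 2. Eef1e1, whose product sits in the multi-tRNA-synthetase complex, had 0.42 (interval 0.05 to 0.79; adjusted p = 0.141). Eef1a2, the form of muscle and neurons, was well above background in 0 of 4 organoid channels and in 0 of 4 crypt channels, so it was not tested.

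The translocation factor gene Eef2 had 0.34 (interval -0.01 to 0.69; adjusted p = 0.188), with 0.37 and 0.55 in mouse 1 and -0.24 and 0.69 in mouse 2. The kinase that inhibits it, Eef2k, had 0.32, with 0.34 in mouse 1 and 0.30 in mouse 2, and its second probe had -0.07. Eefsec, which delivers selenocysteine, had 0.27. Over all 8 tested elongation factor genes the median was 0.33, with 2 called, and over the 46 tested initiation factor genes without the Argonautes it was 0.10, with 4 called. That difference was not tested.

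Eif6, whose product keeps the large ribosomal subunit from joining too early, was below zero on all 4 arrays, as were 21.7% of all genes. Eif6 read -0.45 and -0.16 in mouse 1 and -0.60 and -0.28 in mouse 2, and its mean of -0.37 ± 0.09 did not pass (adjusted p = 0.142). With median centring, which put 53 of the 58 factors and 72.4% of all genes above zero, Eif6 was at -0.02. Eif5a, whose product carries the modified residue hypusine, had -0.09 (interval -0.45 to 0.28), and its paralogue Eif5a2 had 0.12.

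The 9 genes of a TOP list (Eef1a1, Eef1b2, Eef1d, Eef1g, Eef2, Eif3e, Eif3f, Eif3h and Eif4b) were all tested. Of these, 4 were called, all higher in organoids, and all 9 had means at or above zero in each mouse, with a median of 0.43. The other 45 factors, without the Argonautes, had a median of 0.10 with 2 called. The list was chosen with results of these arrays known, so it is not independent evidence of a direction. Its genes have bright probes, and other genes of like intensity were compared with them. Genes within 0.5 log2 units of the intensity of Eef1b2 (152 genes) and of Eef1a1 (129 genes) had median ratios of 0.22 and 0.25. Of these neighbours 17.8% and 21.7% were called higher. Ribosomal protein genes and other factors were not left out of the neighbours, and their share was not counted. The neighbours' ratios are therefore not a measure of brightness alone. Eef1b2 stood 0.55 and Eef1a1 0.48 above such neighbours when arrays were only median-centred. Around the other 4 called factors the neighbours' median lay between -0.02 and 0.01. Set against neighbours of like intensity, the 9 TOP genes had a median difference of 0.40, with 8 of 9 above zero, and the 54 factors had 0.14, with 38 of 54 above zero.

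The cytosolic ribosomal protein genes, the other large family of TOP mRNAs, had a median of 0.53. Of 78 tested genes 28 were higher (35.9%, against 5.65% of all genes) and 0 lower. Their median log2 intensity was 16.16, close to that of Eef1b2, 16.19. Genes of like intensity to Eef1b2 had a median of 0.22, with 17.8% called higher. Ribosomal protein genes were not left out of these neighbours, so the neighbours give no separate baseline for that family. The family was not set against other genes of like intensity. Of the TOP-listed and called factors, those with an entry in the RefSeq promoter table for GRCm38.p6 are given here as 30 bases before and 30 from the annotated start. Capitals mark a C followed by at least 5 bases that are each C or T, read on the transcript strand only.
Eef1a1, chr9:78481695-78481754, minus strand: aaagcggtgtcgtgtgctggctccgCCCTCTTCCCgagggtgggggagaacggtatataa
Eef1b2, chr1:63176801-63176860, plus strand: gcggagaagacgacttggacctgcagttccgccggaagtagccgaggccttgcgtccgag
Eef2, chr10:81176601-81176660, plus strand: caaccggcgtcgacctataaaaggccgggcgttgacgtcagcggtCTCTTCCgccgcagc
Eif3f, chr7:108934385-108934444, plus strand: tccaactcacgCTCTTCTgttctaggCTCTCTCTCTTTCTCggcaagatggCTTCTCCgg
Eif3m, chr2:105016998-105017057, minus strand: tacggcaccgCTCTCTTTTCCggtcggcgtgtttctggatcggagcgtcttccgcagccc
Eif4b, chr15:102073743-102073802, plus strand: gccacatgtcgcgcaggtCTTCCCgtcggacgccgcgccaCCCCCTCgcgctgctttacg

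Such a run was present somewhere in 5 of the 6 windows and absent from that of Eef1b2. The windows span both sides of the annotated start, and a run was not required to lie at it. In the Eif3m window the only run lies wholly before the start, and in the Eef2 window the only run lies wholly after it. Neither run of the Eif4b window covers the start. In the Eef1a1 and Eif3f windows a run spans it. A match therefore does not show that the mRNA begins with the run. The run was found in 43.2% of the 44 factors with a promoter entry, in 43.8% of the 27025 genes with one, and in 72.1% of ribosomal protein genes. Tested factors with the run had a median ratio of 0.22 (18 genes) and those without it 0.11 (25 genes). The motif CACGTG, a palindrome read the same on both strands and known as the E-box bound by MYC, was found in the full 300-base windows of 12 of the 44 factors (27.3%). Its share was 8.09% over all genes with a promoter and 11.4% over tested genes. The 12 factors with CACGTG had a median of 0.11, from -0.47 for Eif4g1 to 0.46 for Eif3k, with 0 called. The 31 without it had 0.17, with 4 called. A match is a string in this window and no evidence of a bound factor.

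Other genes of translation were taken from lists beside the factors. In organoids 3 genes of these lists were higher and 1 was lower. The lists held 9, 12, 2, 9, 15 and 11 tested genes. Over all genes 5.65% were called higher and 5.6% lower, and an excess of calls in the lists was not tested. Apart from the brightest gene of a list, genes named without a call were chosen after their values were seen. The translational inhibitor Paip2, which pulls the poly(A)-binding protein off mRNA, was higher at 0.71 ± 0.14 (adjusted p = 0.0332). Paip2 lost the call in 5 of the 12 other processing settings. Among these were the scanner software's own ratios (adjusted p = 0.0854) and the deposited matrix (adjusted p = 0.075). The other 11 genes of the poly(A)-binding and helicase list did not pass. Pabpc1, the poly(A)-binding protein gene itself, had 0.40, and Pdcd4, which blocks eIF4A, disagreed between mice at -0.82 and 0.39.

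In the list of mTORC1, S6 kinase and MNK genes 2 of 15 were called, both higher and both inhibitors of mTORC1 signalling. Ddit4, which encodes REDD1, was 3.44-fold higher, with 2.21 in mouse 1 and 1.35 in mouse 2 (adjusted p = 0.0122). Sesn2, which encodes an amino acid sensor, was 1.87-fold higher, with 0.92 in mouse 1 and 0.89 in mouse 2 (adjusted p = 0.0155). None of the other 13 passed. Rps6, the ribosomal protein that S6 kinase phosphorylates and the brightest of the list, had 0.70 (adjusted p = 0.0608). The mTORC1 activator gene Rheb had 0.44 and was above zero on all 4 arrays, as were 25.5% of all genes. The kinase gene Mtor had -0.23 and its partner Rptor had -0.26. Among genes for further inhibitors, Deptor had 0.42 in mouse 1 and 1.19 in mouse 2 (adjusted p = 0.0758), and Tsc1, Tsc2 and Akt1s1 had -0.08, -0.08 and -0.11.

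The next list held 9 genes, for the eIF2alpha kinases, phosphatase subunits and regulators of either. Of these, Eif2ak2, the kinase PKR that senses double-stranded RNA, was lower in organoids at -0.80 ± 0.16 (adjusted p = 0.0259). The amino acid sensing kinase gene Eif2ak4 had 0.40, Eif2ak3 had 0.06 and Eif2ak1 had -0.32, none of them called. Dnajc3, an inhibitor of these kinases, had -0.74 (adjusted p = 0.0632), and Ppp1r15b, a phosphatase subunit gene and the brightest of the list, had -0.29. No gene was called among 9 for termination and recycling (median 0.09; 0 at an unadjusted p under 0.05; 0.25 for the reinitiation factor gene Mcts1), 2 hypusine enzymes (0.16 and -0.08) and 11 mitochondrial translation factors (median -0.11; 2 at an unadjusted p under 0.05, both lower). The mitochondrial elongation factor gene Tufm had -0.42 and Gfm1 had -0.59 (adjusted p = 0.111 and 0.0901).

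**Figure D5:**
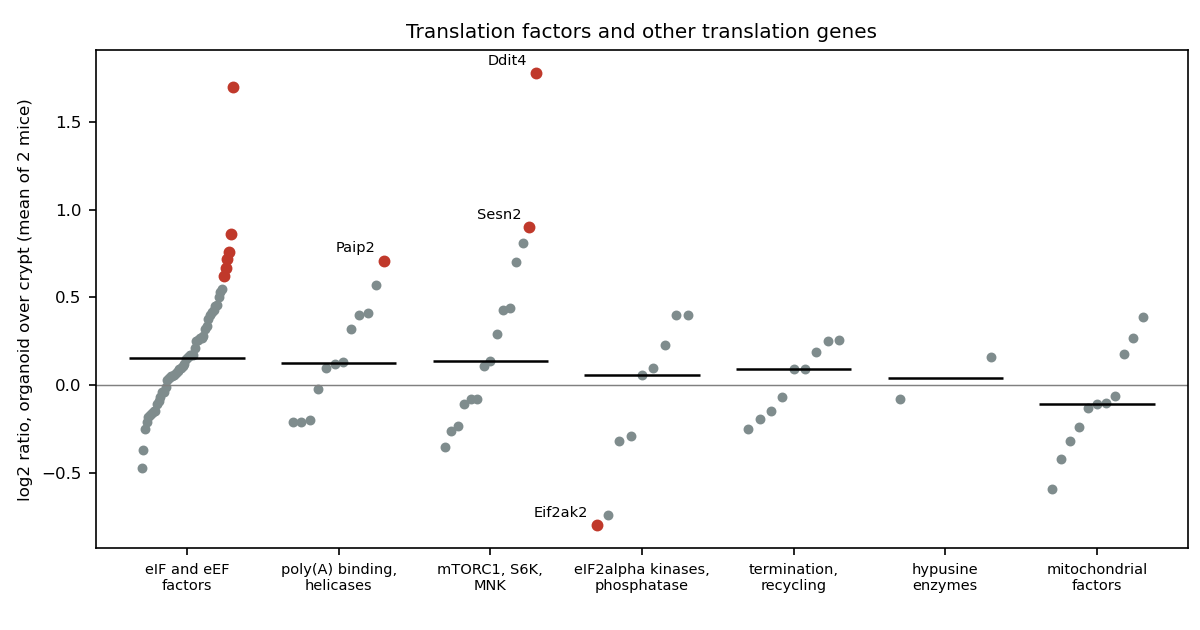
Log2 ratio of organoid over crypt (vertical axis, mean of 2 mice) of the 54 tested eIF and eEF genes without the Argonautes and of 6 lists of other translation genes, red where the adjusted p was under 0.05, with a bar at each median. Ddit4, Sesn2 and Paip2 lie above zero and Eif2ak2 below it, and the medians run from -0.11 for mitochondrial factors to 0.16 for the factors.

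Several factors had more than 1 tested probe. Of the 36 such genes, 26 had probes all of 1 sign and 10 had probes of both signs, none of which was called. A ratio for a gene with near-identical copies, such as Eif1a and Eif1ax or Eif3j1, can hold signal from the copy.

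The epithelial markers were well above background in every channel, 8 of 8, and 5 of them were lower in organoids and 1, Krt18, was higher. White blood cell markers had a median of -0.36, with 2 of 10 lower (Cd3g and Lyz2). Well above background were 6 of 10 in all organoid channels, against 9 of 10 in all crypt channels. Cd3g and Itgam were well above background in 0 of 4 organoid channels. The organoid side of their ratios therefore rests on signal near background, and the size of those ratios is uncertain. Lyz2 levels were 15.96 and 15.99 in crypts of mouse 1 and mouse 2, where the median log2 intensity of the list was 7.83. Whether the Lyz2 signal came from white blood cells was not tested. Among markers of stroma, muscle and vessels, 3 of 12 were tested and 1, Acta2, was lower. The part of these shifts in the ratios of the translation factors was not tested, and in bulk RNA fewer cells of a type cannot be told apart from less RNA per cell.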

How the data were processed

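The authors' deposited scanner files hold intensity values per spot in Cy3 and Cy5 on a linear scale, and the scanner's own log10 ratio of Cy5 over Cy3. The deposited series matrix holds log2 ratios, whose direction was found by setting each column against the scanner ratios (r from 0.978 to 0.991). Each matrix column's median was 0, and its centring is otherwise not stated. The scanner software was Agilent Feature Extraction, version 10.2.1.3 per the file headers and version 9.5.3 per the submitters' processing notes. The labels name Trizol and the design text an RNeasy kit for RNA isolation.

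In R 4.3.3, limma 3.58.1 was used for background correction by normexp (offset 50) and for loess normalisation of each array with control spots at weight 0. Outlier-marked spots were left out, spots of a probe were averaged, and the dye labels gave the direction of each ratio, organoid over crypt. Tested probes, 21921 in number, had no outlier mark on any array and stood well above background in all 4 organoid or all 4 crypt channels. The gene was represented by its probe of highest mean intensity. The mean of the mice was tested against 0 by lmFit followed by eBayes (two-sided, 1 residual and 4.2 prior degrees of freedom, prior SD 0.201). Channel levels were computed after loess and Aquantile. The 2 arrays of a mouse correlated with r = 0.838 and 0.851, and the mice with r = 0.771. Organoid channels had 51.5% to 61.7% of probes well above background and crypt channels 53.8% to 67.3%, and the number of arrays and mice limits the precision. P-values rest on the spread between 2 mice, drawn for each gene towards the prior SD shared by all genes. They therefore do not measure a gene's own spread alone. Eif4ebp3 (SD 0) and Eif2b1 (SD 0.02) had the same standard error, 0.128.

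Probes were named through RefSeq's table by accession (24844 of 41174) or else by the file's name. Every factor could be named. For each role, those past the test, the extremes and the brightest are given with values, and in other lists those past the test and the brightest, with others chosen after their values were seen. The members and lists were chosen with earlier results of these data known. Alternatives were other background, scaling, filter, probe, dye and variance choices.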

Additional observations from a re-analysis of the deposited data

How the results depend on the processing

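The number of factors higher in organoids was 6 as reported. It was 1 with median centring, with the scanner software's own ratios, with the deposited matrix and without the filter on dim probes, 2 from the arrays with the organoid in Cy3, 14 when 4 arrays were fitted with a dye term, and 12 under a random mouse block. With the scanner ratios and the matrix this was 1.72% of the factors, against 4.6% and 4.48% of all genes. The fits with a dye term or a block treat the arrays of a mouse as separate or partly separate samples. The number lower was 0 except for 1 (Eif6) in the fit with a dye term and 1 (Eif4g1) from the Cy5 arrays. The median of the tested factors was 0.45 with median centring, where the median of all genes was 0.17, it was 0.16 without the Argonautes (chosen after seeing the data), and leaving out each mouse gave 0.12 to 0.15. All genes past the test numbered 1719, with 1491 for the scanner ratios and 1478 for the matrix, against 204 with median centring, 711 without the dim filter, 3709 in the fit with a dye term, 3095 under the random block and 928 from the Cy3 arrays. Calls in the lists of other translation genes numbered 4, against 0 with median centring, 1 without the dim filter, 16 in the fit with a dye term and 14 under the random block. Without the dim filter 27909 genes shared the adjustment. The cause of the changes in calls was not tested for any setting. No called factor changed sign under any setting or in either mouse alone. Of the called genes in the other lists, Paip2 lost its call in 5 of the 12 other settings, Eif2ak2 in 3, Ddit4 in 2 and Sesn2 in 1.

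With 1 mouse left out there is no test. The random block was run without the dye effect, since its correlation could not be estimated with it, so the planned form was not run. A block for the slide was not run because all 4 arrays share it. The reported test is itself paired by mouse, since each array sets organoid against crypt of 1 mouse.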
